A study of Mus musculus with 23 samples.

Results

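The early nuclear response to RAF, MEK and ERK signaling was examined in mouse liver on 10 transcription factor genes, *Fos*, *Fosb*, *Fosl1*, *Jun*, *Junb*, *Egr1*, *Nr4a1*, *Etv4*, *Etv5* and *Myc*. They were taken as a named list, matched on gene symbol, and all 10 were found among the 27179 genes of the count table. The RNA was from livers of 15 female mice, sampled where no tumor was visible. The 6 Ctrl mice were Alb-Cre/Trp53 flx/flx/Icmt flx/+ with wild-type *Braf*. The 6 ABpIF/+ mice carried in addition the Braf CA allele, which yields BRAF V600E after recombination, although the genotype labels write BRAF +/+ for them and for ABpIF/F mice. In the 3 ABpIF/F mice, which had the same *Braf* and *Trp53* alleles, both *Icmt* alleles were floxed, and they were all the animals obtained of that genotype. Every group therefore shared Alb-Cre, whose recombination is aimed at hepatocytes, floxed *Trp53* and at least a single floxed *Icmt* allele. *Icmt* encodes the methyltransferase of prenylated proteins such as RAS. By strain label, 5 Ctrl mice came from a B6 line with the *Icmt*, *Trp53* and Alb-Cre alleles and wild-type *Braf*, and the Ctrl mouse BG3 and all 9 mice with BRAF V600E from a cross of that line with a B6 and 129P2 line that carries the *Braf* allele. The labels give no age for any mouse, and the study describes the 3 ABpIF/F mice as of different ages, which are not tied to libraries here. The study also reports weight loss and visible illness in ABpIF/+ mice, but not in Ctrl or ABpIF/F mice. The condition of each sequenced mouse is not given. Poor condition thus goes with the ABpIF/+ group, and its part in the results below was not tested. Whole liver was sequenced, so cells without Cre are included, and fewer cells of a type and less RNA per cell cannot be told apart.

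Signaling through the kinase ERK reaches the nucleus within minutes, where phosphorylated ternary complex factors and other activators switch on genes that need no new protein. These immediate early genes, among them *Fos*, *Jun*, *Egr1* and *Nr4a1*, encode transcription factors whose messages are short-lived. FOS and JUN proteins pair to form AP-1. *Etv4* and *Etv5*, ETS factors of the PEA3 group, are slower and are widely used as a readout of sustained ERK output, because the repressor Capicua (*Cic*) holds them down until ERK relieves it. In liver the early genes are best known from regeneration after partial hepatectomy and from injury and stress.

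The proximal promoters of *Fos*, *Junb* and *Nr4a1* are shown because these were the 3 members whose ABpIF/+ values all lay above those of ABpIF/F mice. Each is the stretch of 250 bases upstream of the RefSeq start on GRCm38.p6, 5′ to 3′ on the strand of the gene, with matches to a searched motif in capitals. The windows lie at chr12:85473640-85473889 on the plus strand, chr8:84978749-84978998 on the minus strand and chr15:101266596-101266845 on the plus strand. That of *Nr4a1* falls within an intron of longer GENCODE transcripts of the same gene.
Fos: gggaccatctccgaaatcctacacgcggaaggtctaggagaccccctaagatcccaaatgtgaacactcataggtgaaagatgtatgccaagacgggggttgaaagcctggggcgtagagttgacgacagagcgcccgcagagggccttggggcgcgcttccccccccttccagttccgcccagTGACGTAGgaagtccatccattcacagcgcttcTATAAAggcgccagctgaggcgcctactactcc
Junb: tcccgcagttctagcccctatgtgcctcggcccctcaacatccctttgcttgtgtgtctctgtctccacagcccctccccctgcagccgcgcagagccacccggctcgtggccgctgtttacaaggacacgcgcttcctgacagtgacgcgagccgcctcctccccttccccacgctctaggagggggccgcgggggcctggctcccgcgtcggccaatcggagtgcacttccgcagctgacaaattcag
Nr4a1: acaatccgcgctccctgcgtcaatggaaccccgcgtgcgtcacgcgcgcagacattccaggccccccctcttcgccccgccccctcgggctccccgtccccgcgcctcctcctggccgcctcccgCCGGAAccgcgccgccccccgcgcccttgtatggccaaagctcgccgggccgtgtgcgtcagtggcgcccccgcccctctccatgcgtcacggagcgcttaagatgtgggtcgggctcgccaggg

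The capitals in the *Fos* sequence mark a relative of the cAMP response element, TGACGTNN, from -66 to -59 and the TATA box, TATAAA, from -33 to -28, counted from the start site. In *Nr4a1* they mark the ETS core CCGGAA from -125 to -120, and no searched motif was found in the *Junb* window. Both strands were searched for the CArG box, by name the site of SRF, the cAMP response element (TGACGTCA), its relatives (TGACGTNN that are not the full element), the AP-1 site (TGANTCA), the ETS site (CCGGAAGT) and its core (CCGGAA, which the longer site contains), the E box (CACGTG) and the TATA box. Promoter windows were given for 6 of the 10 members, the others being *Fosb*, *Jun* and *Etv5*, and *Etv5* had 2. None of those 6 held the CArG box, the full cAMP response element, the AP-1 site, the ETS site or the E box within these bases. Over all 32851 windows the CArG box was found in 1.47%, the cAMP response element in 1.55% and its relatives in 4.96%, the AP-1 site in 6.75%, the ETS site in 2.88% and its core in 12%, the E box in 6.02% and the TATA box in 12.4%. These matches are a description of the letters. The 3 windows held 58.4%, 66.4% and 74.4% G or C, beside a median of 52.4% over all windows.

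Gene counts summed to 24742910 in the shallowest and 32262649 in the deepest library, and levels are given as CPM, the count of a gene relative to the TMM-scaled total of its library, unless stated otherwise. *Icmt* was between 15.2 and 16.6 CPM in ABpIF/F mice, and no mouse of the other groups was below 27.8. With 5 of 6 Ctrl mice from the parental line, strain label and *Braf* genotype are nearly confounded. Clock genes set some mice apart. A score of clock genes, the evening side minus the morning side in z units, was between -3.35 and -1.96 in ABpIF/F and -2.63 in the Ctrl mouse malpa387, but between 0.58 and 1.26 in all others. The summed level of 6 neutrophil markers was 4.37 CPM in BG183, 77.7 in BG38 and 30.1 in BG90, all ABpIF/F, and at most 7.92 elsewhere, with 5 of 6 called higher in ABpIF/F vs Ctrl. That of 6 cholangiocyte markers was 205 to 1150 CPM in ABpIF/F and at most 145 in other mice, with 4 of 6 called higher in ABpIF/F vs Ctrl. Most of this sum was *Spp1*, which averaged 660 CPM in ABpIF/F mice, with *Sox9* next at 38.7. In ABpIF/+ mice 6 stellate cell markers summed to 22.1 to 53.2 CPM, below the 82.3 to 99.7 of Ctrl and 122 to 186 of ABpIF/F mice, and 4 of 6 were called lower in ABpIF/+ vs Ctrl. The 6 macrophage markers summed to 218 to 300 CPM in Ctrl, 95.3 to 152 in ABpIF/+ and 175 to 372 in ABpIF/F mice. The 8 hepatocyte markers, *Alb* among them, summed to 95930 to 125300 CPM in Ctrl and 151900 to 206300 in ABpIF/+ mice. In ABpIF/F mice they summed to 109400 to 197200 CPM. Every ABpIF/+ mouse thus lay above every Ctrl mouse in this sum. Most of it was *Alb*, which averaged 89160 CPM in Ctrl and 153800 in ABpIF/+ mice. As a set these markers did not shift: in ABpIF/+ vs Ctrl their log2 fold changes were centered at 0.08 (median). They ran from -0.81 for *Ttr* to 1.06 for *Tat*, the only marker called. The 7 lymphocyte markers summed to 3.36 to 5.58 CPM in Ctrl, 0.685 to 2.65 in ABpIF/+ and 4.18 to 12.3 in ABpIF/F mice. For 6 endothelial markers the sums were 144 to 220, 72.3 to 166 and 173 to 241 CPM, and for 5 blood markers 27.4 to 91.2, 55.5 to 204 and 48.9 to 91.8 CPM. The part of these differences in the results below was not tested. The clock score was fitted as a covariate, but outside ABpIF/F only malpa387 had a low score. Clock score and group are thus nearly confounded, and that fit cannot tell them apart.

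In ABpIF/+ vs Ctrl livers most of the early response was higher. *Fos*, *Jun*, *Junb*, *Egr1*, *Nr4a1*, *Etv4* and *Myc*, 7 of 10 members, were upregulated at an edgeR adjusted p under 0.01 and a change of at least 2-fold, and none was downregulated. Over all genes 4.69% were called higher and 5.35% lower by this rule (8.21% and 9.39% of the 12316 genes averaging 1 CPM or more). All 6 mice lay above all Ctrl mice for 6 members, and 10.4% of the 20380 genes with a read did so, while 10.8% lay wholly below. The median log2 fold change was 2.51 over the 9 members with enough reads for a fold change, against 0 over all genes with a read. With the sole Ctrl mouse that shares the strain label of the other groups, BG3, as the only control, 2 members were called, *Fos* and *Etv4*, and the other 5 kept their direction with log2 fold changes of at least 2.18.

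In ABpIF/F vs Ctrl livers *Fos*, *Junb*, *Etv4* and *Etv5*, 4 of 10 members, were upregulated and none was downregulated. By the same rule 4.55% of all genes were higher and 2.38% lower (7.53% and 5.04% of those averaging 1 CPM or more). The 3 ABpIF/F mice lay above all Ctrl mice for 5 members, the 4 named and *Jun*, beside 12.4% of the genes with a read above and 10.5% below. The median log2 fold change of the members was 1.58, and 0.09 over all genes with a read. Once the clock score was fitted beside the groups a single member, *Etv4*, was called in this comparison, as it was with BG3 as the only control. The fold changes of *Fos*, *Junb* and *Etv5* were then 2.17, 1.52 and 1.00 on the log2 scale with the clock score (edgeR adjusted p = 0.0152, 0.0866 and 0.159) and 2.65, 1.47 and 1.33 against BG3, near the values with all mice and no covariate.

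When ABpIF/+ was compared with ABpIF/F directly, fewer members were called. *Fos* and *Nr4a1* were higher in ABpIF/+ mice and *Etv4* was lower, and the other 7 members did not pass. By this rule 1.76% of all genes were higher and 5.49% lower in ABpIF/+ (3.72% and 8.5% of those averaging 1 CPM or more). For 3 members, *Fos*, *Junb* and *Nr4a1*, all ABpIF/+ mice were above all ABpIF/F mice, beside 12.2% of the genes with a read, and 12.7% lay below. The median log2 fold change of the members was 1.32, and -0.05 over all genes with a read. Of the members only *Nr4a1* was called with the clock score as a covariate, where *Fos* was at 1.97 (edgeR adjusted p = 0.0568), no smaller than the 1.45 without it, and *Etv4* at -0.80 (edgeR adjusted p = 0.944). Between 1 and 3 members were called when single mice were left out, with 1 member called without BG55, BG88, BG38 or BG90. That member was *Fos* without BG55, BG88 or BG90. Without BG38 it was *Myc*, which was not called with all mice. All comparisons share mice, so that the same animals enter more than a single contrast.

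**Figure D1:**
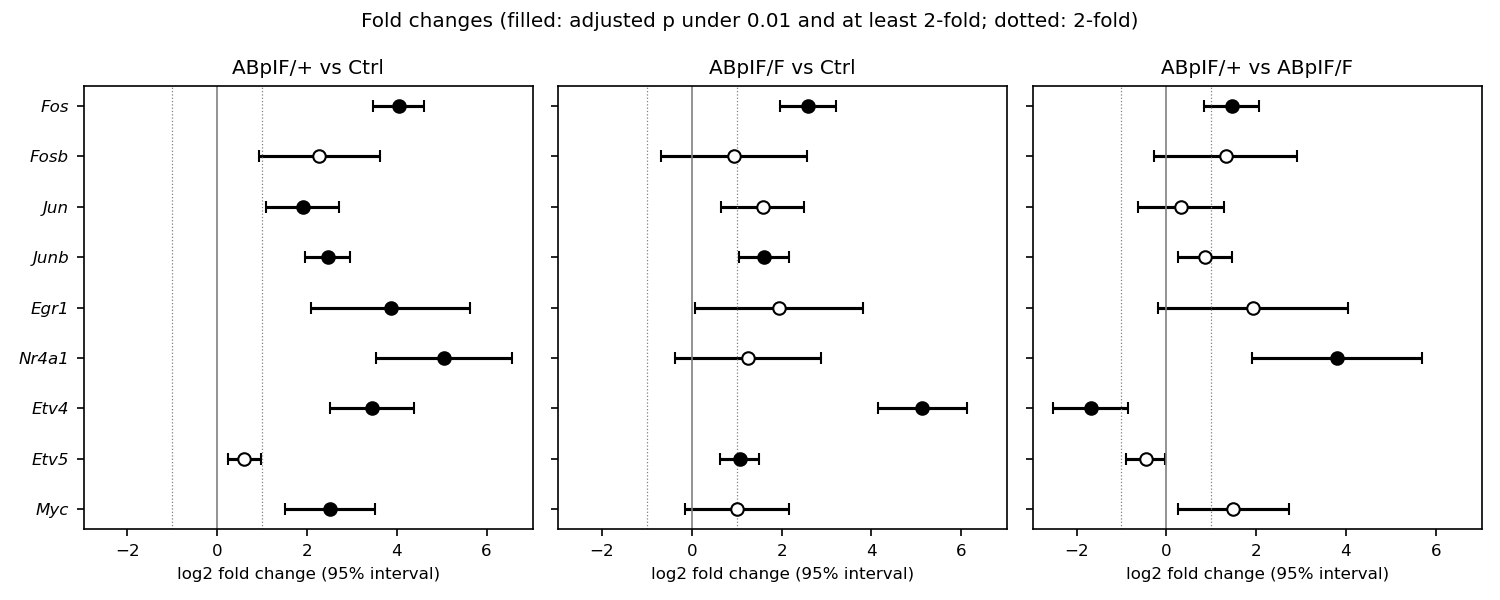
Log2 fold changes of 9 members in the 3 comparisons with 95% intervals, filled where called and open where not, with dotted lines at a 2-fold change. *Nr4a1* runs from 5.06 in ABpIF/+ vs Ctrl to 1.25 in ABpIF/F vs Ctrl, and *Etv4* from 3.45 to 5.14.

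*Fos*, the prototype immediate early gene and the partner of JUN proteins in AP-1, separated the 3 groups completely. In Ctrl mice it was at 0.373 CPM at the lowest, 0.737 at the median and 1.12 at the highest. ABpIF/+ mice had 5.94, 11.5 and 18.2 CPM at the same points, and the ABpIF/F mice BG183, BG38 and BG90 had 4.80, 4.32 and 4.43. The 3 ABpIF/F values lay within a narrow band between the other groups. The log2 fold change was 4.04 (SE 0.27, edgeR adjusted p = 3.71e-10) in ABpIF/+ vs Ctrl. In ABpIF/F vs Ctrl it was 2.59 (SE 0.30, edgeR adjusted p = 2.01e-06). ABpIF/+ exceeded ABpIF/F by 1.45 (SE 0.30, edgeR adjusted p = 0.00137). Without BG38 this last difference was 1.42 and the adjusted p 0.0125, short of the threshold.

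*Fosb* encodes another FOS protein, well known from stimulated neurons, and was scarce in liver. Its lowest, median and highest values were 0.0746, 0.226 and 0.335 CPM in Ctrl, and 0.242, 0.552 and 3.94 in ABpIF/+ mice. The ABpIF/F mice BG183, BG38 and BG90 had 0.489, 0.499 and 0.250 CPM. The ranges overlapped, and a single ABpIF/+ mouse, BG88, carried 107 of the 172 reads of its group. In ABpIF/+ vs Ctrl the log2 fold change was 2.27 (SE 0.65, edgeR adjusted p = 0.0117), and it was 1.12 without BG88 (adjusted p = 0.121). Without BG30, BG31 or BG40 it passed the threshold, with adjusted p-values from 0.00561 to 0.00908. Differences of 0.95 in ABpIF/F vs Ctrl (edgeR adjusted p = 0.539) and 1.32 in ABpIF/+ vs ABpIF/F (0.292) did not pass. *Fosl1*, the gene of FRA-1, a FOS protein common in RAS and RAF driven carcinoma cells, had no read in any Ctrl mouse and at most 1 in any other. With all groups at or under 3 reads per library no fold change is given, and a difference was not detectable at this depth.

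*Jun*, the first JUN gene known and a driver of hepatocyte proliferation after hepatectomy, was at 5.07, 8.15 and 14.4 CPM (lowest, median, highest) in Ctrl. In ABpIF/+ mice the values were 15.2, 33.7 and 61.0 CPM, and in the ABpIF/F mice BG183, BG38 and BG90 22.8, 40.0 and 21.6 CPM. Both groups with BRAF V600E lay above every Ctrl mouse and overlapped with each other. The log2 fold change was 1.90 (SE 0.37, edgeR adjusted p = 0.00158) in ABpIF/+ vs Ctrl and 1.58 (SE 0.43, edgeR adjusted p = 0.0201) in ABpIF/F vs Ctrl. DESeq2 called the second as well (adjusted p = 0.00037). ABpIF/+ and ABpIF/F differed by 0.33, with a 95% interval from -0.63 to 1.28 (edgeR adjusted p = 0.835). *Jun* lies on chromosome 4 (95049034 to 95052222) and overlaps the antisense gene *Junos*, and *Junb* on chromosome 8 overlaps *Prdx2* on the opposite strand. Since the strand setting of the counting is not stated, reads of these partners cannot be told apart from those of the members.

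*Junb*, the gene of a JUN protein that often restrains JUN, had the highest mean level per length in every group, although *Egr1* was level with it in ABpIF/+ mice. Ctrl mice ranged from 11.6 to 21.5 CPM with a median of 19.4, and ABpIF/+ mice from 56.5 to 156 with a median of 83.8. The ABpIF/F mice BG183, BG38 and BG90 were at 53.3, 54.9 and 51.5 CPM. The 3 groups did not overlap, although the highest ABpIF/F and the lowest ABpIF/+ mouse were close. In ABpIF/+ vs Ctrl *Junb* rose by 2.46 on the log2 scale (SE 0.24, edgeR adjusted p = 5.42e-07). The rise was 1.61 (SE 0.26, edgeR adjusted p = 0.000335) in ABpIF/F vs Ctrl. Between ABpIF/+ and ABpIF/F the difference of 0.85 (SE 0.28, edgeR adjusted p = 0.0464) did not pass the threshold.

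*Egr1*, a zinc finger factor and a direct target of the ternary complex factor ELK1, varied widely between mice of each group. In Ctrl mice the values were 4.62, 8.25 and 56.8 CPM (lowest, median, highest), and in ABpIF/+ mice 42.8, 204 and 501. BG183, BG38 and BG90, the ABpIF/F mice, had 61.0, 93.3 and 27.4 CPM. A single Ctrl mouse, malpa458, lay above the lowest ABpIF/+ and the lowest ABpIF/F mouse, and the next Ctrl mouse was at 11.8 CPM. In ABpIF/+ vs Ctrl the log2 fold change was 3.86 (SE 0.82, edgeR adjusted p = 0.00311), and 4.92 without malpa458. In ABpIF/F vs Ctrl it was 1.93 (SE 0.86, edgeR adjusted p = 0.173), and 2.99 without malpa458 (adjusted p = 0.0109), still short of the threshold. The difference between ABpIF/+ and ABpIF/F was 1.93 with a 95% interval from -0.20 to 4.05 (edgeR adjusted p = 0.23), too wide to show equality or a difference.

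*Nr4a1*, an orphan nuclear receptor (NUR77) known in liver for the control of gluconeogenic genes, had the largest rise of the members in ABpIF/+ vs Ctrl. Ctrl mice were at 0.834, 1.52 and 10.1 CPM (lowest, median, highest), and ABpIF/+ mice at 36.0, 70.3 and 186. In the ABpIF/F mice BG183, BG38 and BG90 the level was 7.11, 6.65 and 5.89 CPM. ABpIF/+ mice lay above all others, whereas ABpIF/F mice lay above 5 Ctrl mice and below the Ctrl mouse malpa387. The log2 fold change was 5.06 (SE 0.70, edgeR adjusted p = 0.000112) in ABpIF/+ vs Ctrl, and 6.14 without malpa387. In ABpIF/F vs Ctrl it was 1.25 (SE 0.75, edgeR adjusted p = 0.34), and without malpa387 it was 2.33 and past the threshold (adjusted p = 0.00582). ABpIF/+ exceeded ABpIF/F by 3.81 (SE 0.87, edgeR adjusted p = 0.00829). The size of this last difference stayed between 3.48 and 3.98 when single mice were left out. Its call was lost in 10 of 15 such fits, those without BG3, malpa454, malpa462, BG175, BG31, BG55, BG88, BG183, BG38 or BG90, with adjusted p-values up to 0.045. With the clock score as a covariate the difference from Ctrl turned to -0.26 in ABpIF/F and was not called. Among Ctrl mice only malpa387 had a clock score as low as those of ABpIF/F mice, so that fit leans largely on this mouse.

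*Etv4*, a PEA3 factor of branching epithelia, was close to absent in Ctrl and was the member that went highest in ABpIF/F relative to Ctrl. Its CPM in Ctrl mice were 0 at the lowest, 0.126 at the median and 0.247 at the highest, or 0 to 7 reads. ABpIF/+ mice were tightly grouped at 1.09, 1.37 and 1.74 CPM, and the ABpIF/F mice BG183, BG38 and BG90 were at 1.70, 7.20 and 4.50. Both groups lay above Ctrl without overlap, and BG183 fell within the range of ABpIF/+ mice. The log2 fold change was 3.45 (SE 0.45, edgeR adjusted p = 3.46e-06) in ABpIF/+ vs Ctrl and 5.14 (SE 0.48, edgeR adjusted p = 9.94e-08) in ABpIF/F vs Ctrl, or 10.9-fold and 35.2-fold. In ABpIF/+ vs ABpIF/F it was -1.69 (SE 0.40, edgeR adjusted p = 0.00462). This call was lost without BG30, BG55, BG88, BG38 or BG90, and the value was -1.15 (adjusted p = 0.11) without BG38. BG38 and BG90 were also the mice with the highest summed cholangiocyte markers, mostly *Spp1*, at 1150 and 778 CPM. Their summed neutrophil markers, at 77.7 and 30.1 CPM, were the highest as well. The part of both sums in this difference was not tested.

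*Etv5*, the paralog of *Etv4*, was expressed in all livers and changed least among the members with a call. Ctrl mice had 3.30, 3.98 and 6.25 CPM (lowest, median, highest), and ABpIF/+ mice 5.06, 6.48 and 8.56. BG183, BG38 and BG90 were at 7.38, 11.0 and 9.07 CPM. All 3 ABpIF/F mice were above every Ctrl mouse, and ABpIF/+ mice overlapped with both groups. In ABpIF/F vs Ctrl the log2 fold change was 1.07 (SE 0.21, edgeR adjusted p = 8e-04). The call lay near the 2-fold threshold and was lost without malpa459, BG175 or BG38, at log2 fold changes of 1.00, 1.00 and 0.91. Over the fits without single mice the highest edgeR adjusted p was 0.013, so the limit of 0.01 was missed as well. The rise of 0.61 in ABpIF/+ vs Ctrl (SE 0.18, edgeR adjusted p = 0.0138) and the difference of -0.46 in ABpIF/+ vs ABpIF/F (SE 0.21, edgeR adjusted p = 0.155) did not pass.

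*Myc*, which drives ribosome production and growth and is low in resting hepatocytes, was at 2.31, 3.26 and 5.44 CPM (lowest, median, highest) in Ctrl and at 11.0, 14.2 and 37.4 CPM in ABpIF/+ mice. The ABpIF/F mice BG183 and BG90 were at 2.97 and 3.61 CPM, and BG38 at 14.7. Every ABpIF/+ mouse was above every Ctrl mouse, and 2 of 3 ABpIF/F mice lay within the Ctrl range. The log2 fold change was 2.51 (SE 0.47, edgeR adjusted p = 0.00108) in ABpIF/+ vs Ctrl. In ABpIF/F vs Ctrl it was 1.01 (SE 0.54, edgeR adjusted p = 0.269), and -0.10 without BG38. The difference of 1.49 between ABpIF/+ and ABpIF/F (SE 0.57, edgeR adjusted p = 0.0941) became 2.61 and passed the threshold without BG38 (adjusted p = 0.00752).

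**Figure D2:**
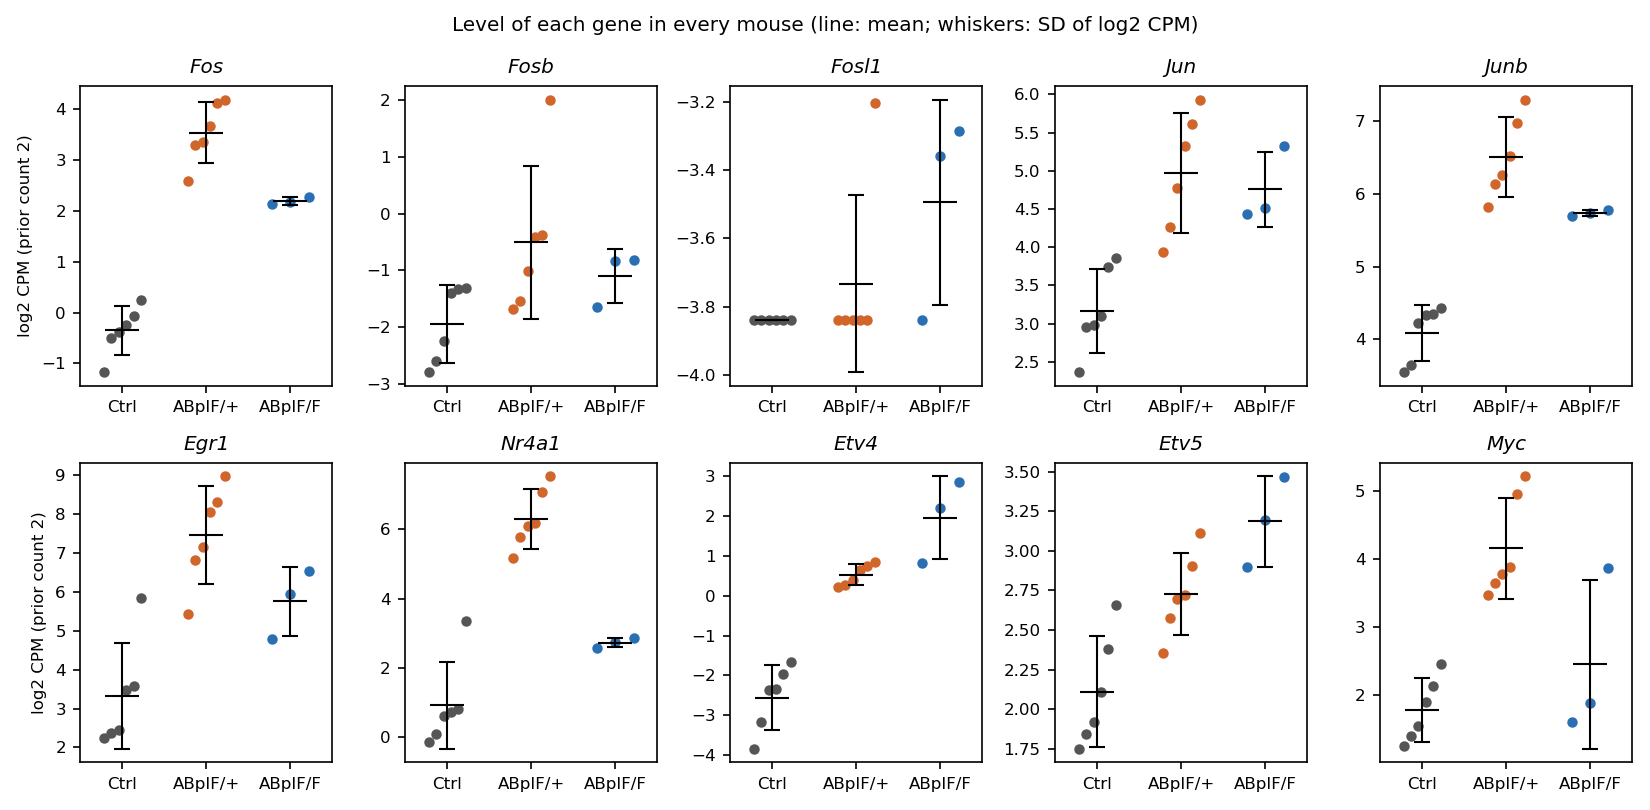
Log2 CPM (prior count of 2) of the 10 members in each mouse, with 6 Ctrl, 6 ABpIF/+ and 3 ABpIF/F mice sorted by value within a group, the mean as a line and the SD as whiskers. *Fos* and *Junb* form 3 separate groups, *Fosl1* stays at the level of 0 or 1 read, and single high mice stand out in Ctrl for *Egr1* (56.8 CPM) and *Nr4a1* (10.1 CPM).

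Levels were compared between members per kilobase of exon. In Ctrl the order of the means ran from *Junb* (9.66 CPM per kilobase) through *Egr1* (3.53), *Jun* (2.96), *Myc* (1.44), *Etv5* (1.08), *Nr4a1* (1.03) and *Fos* (0.355) to *Fosb* (0.0567) and *Etv4* (0.0505). Neighbours in this order overlapped between mice, apart from *Fos* and *Fosb*. In ABpIF/+ mice *Junb* (53.1 ± 20.9, SD, n = 6) and *Egr1* (51.4 ± 37.1) were level, and *Nr4a1* (34.3 ± 21.2) came next, having passed *Jun* (11.1) and *Myc* (8.21). In ABpIF/F mice *Junb* (29.4 ± 0.939, SD, n = 3) again led, and *Nr4a1* (2.44), *Etv5* (2.27), *Fos* (2.14) and *Etv4* (1.86) overlapped. Only *Junb* and *Egr1*, *Jun* and *Myc*, and *Etv4* and *Fosb* were neighbours without overlap among those detected there. *Etv4* thus stood 0.0505 against 1.08 for *Etv5* in Ctrl, and 1.86 against 2.27 in ABpIF/F livers.

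The make-up of the families shifted with the members. In the FOS family, made of *Fos*, *Fosb*, *Fosl1* and *Fosl2*, *Fos* held 25.2% ± 6.59 (SD, n = 6) of the summed level per kilobase in Ctrl, 72.6% ± 7.05 in ABpIF/+ and 56.3% ± 9.46 (SD, n = 3) in ABpIF/F mice. *Fosl2*, the gene of FRA-2, held the largest share in Ctrl, 70.7% ± 8.09, and 24.4% ± 8.63 in ABpIF/+ mice. Its own level did not pass the 2-fold threshold in ABpIF/+ vs Ctrl (log2 fold change 0.81, edgeR adjusted p = 0.00283). Among the JUN genes *Jund*, which is expressed in resting cells, made up 73.7% ± 5.71 in Ctrl, 51.3% ± 7.06 in ABpIF/+ and 54.7% ± 1.47 in ABpIF/F mice. The share of *Junb* was 20.2%, 40.3% and 34.9% in the same order and that of *Jun* 6.09%, 8.42% and 10.3%. In the PEA3 group *Etv5* held 89.4% ± 3.77 in Ctrl, 72.7% ± 4.63 in ABpIF/+ and 56.8% ± 11.6 in ABpIF/F mice, and *Etv4* 4.41%, 25.9% and 41.1%. The shares of *Etv4* ranged from 0 to 9.27% in Ctrl, 17.4 to 31.1% in ABpIF/+ and 26.9 to 51.6% in ABpIF/F mice.

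**Figure D3:**
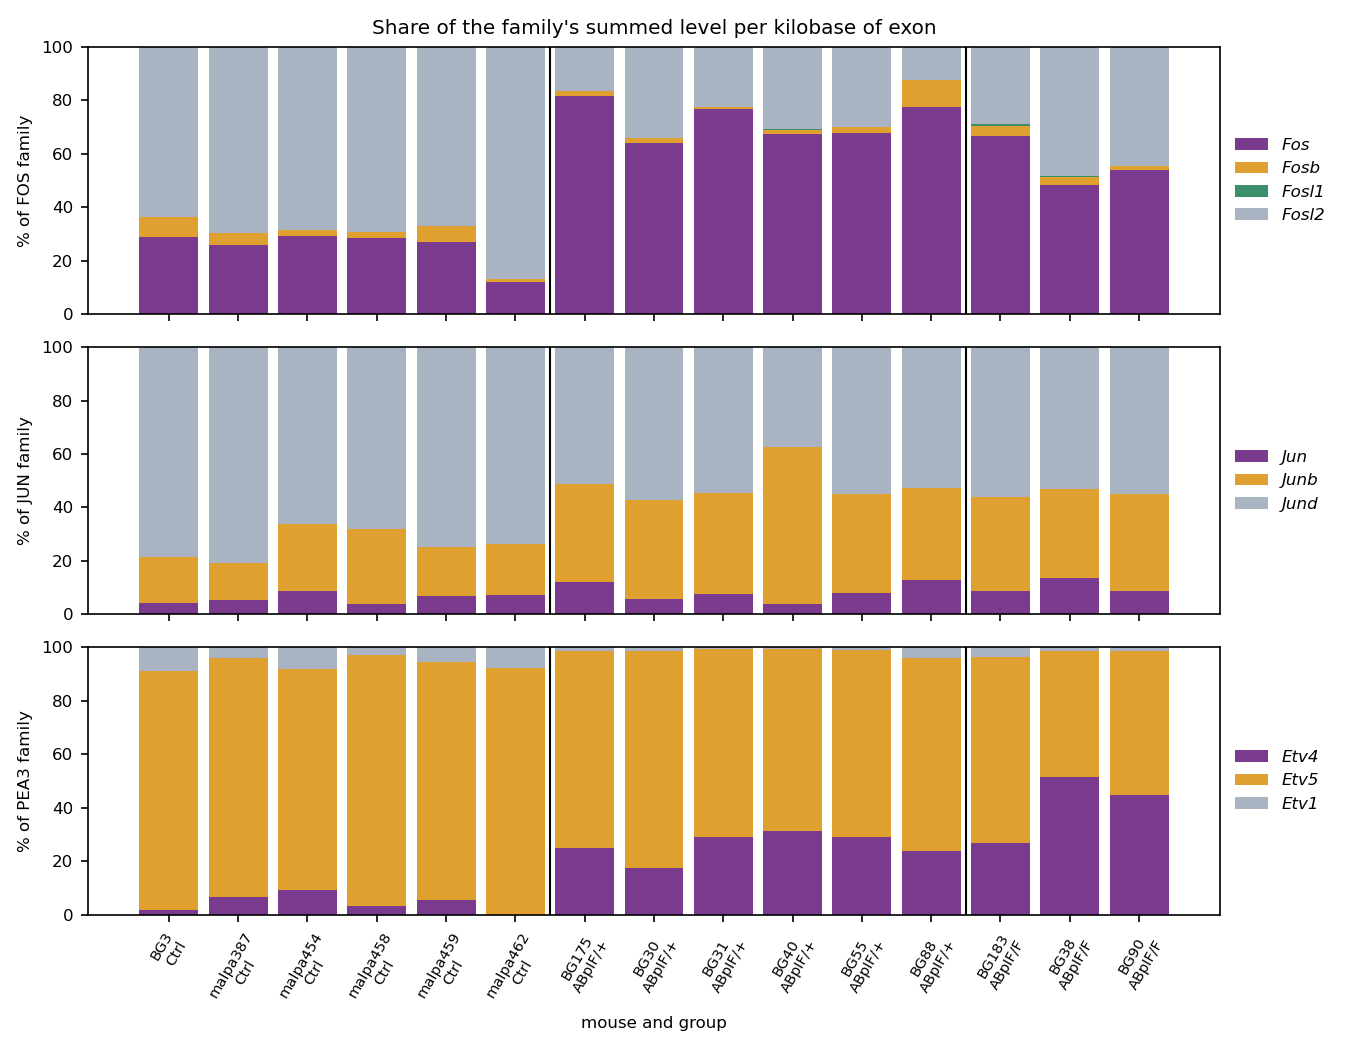
Share of each gene in the summed level per kilobase of exon of the FOS, JUN and PEA3 families in every mouse, in percent, with non-members (*Fosl2*, *Jund*, *Etv1*) in grey and black lines between the groups. *Fos* rises from 12 to 29.1% of its family in Ctrl to 64.1 to 81.6% in ABpIF/+ mice, and *Etv4* is highest in BG38 at 51.6%.

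The members differed in how far mice of a group lay apart. In ABpIF/+ mice the coefficient of variation of CPM was 137% for *Fosb*, 72.3% for *Egr1*, 61.8% for *Nr4a1*, 56.0% for *Myc* and 50.7% for *Jun*, where counting alone would give 18.7, 1.24, 2.00, 4.27 and 3.21%. *Etv4* and *Etv5* varied by 19.2% and 18.3%, against a counting error of 16.2% and 7.37%. In ABpIF/F mice *Fos*, *Junb* and *Nr4a1* varied by 5.53, 3.21 and 9.39%, near the counting errors of 8.38, 2.44 and 6.94%, whereas *Myc*, *Etv4* and *Egr1* varied by 92.8, 61.6 and 54.4%. BG38 was the highest ABpIF/F mouse for *Fosb*, *Jun*, *Junb*, *Egr1*, *Etv4*, *Etv5* and *Myc* and the lowest for *Fos*. Its TMM factor of 1.24 was the highest of all libraries, the others lying between 0.846 and 1.09.

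No single ordering of mice ran through all members. Among ABpIF/+ mice *Nr4a1* was highest in BG55 and *Myc*, *Jun* and *Fosb* in BG88, while *Fos* and *Egr1* were highest in BG175 and *Junb* in BG40. BG30 was the lowest for *Fos*, *Jun*, *Junb*, *Nr4a1* and *Etv4* and the highest for *Etv5*. The Pearson correlation of log2 CPM between 2 members over the 6 ABpIF/+ mice had a median of 0.22 over 36 pairs, of which 23 were positive and 6 above 0.7. For the 6 Ctrl mice the median was 0.23, with 21 positive pairs and 2 above 0.7. No pair had an adjusted p under 0.05 in an exact permutation test, two-sided and adjusted over the 36 pairs of a group, the lowest being 0.15 in ABpIF/+ and 0.607 in Ctrl. Orderings of 6 mice are too few for a lone pair to get under 0.05 after this adjustment. The test therefore cannot show that members vary apart from each other.

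**Figure D4:**
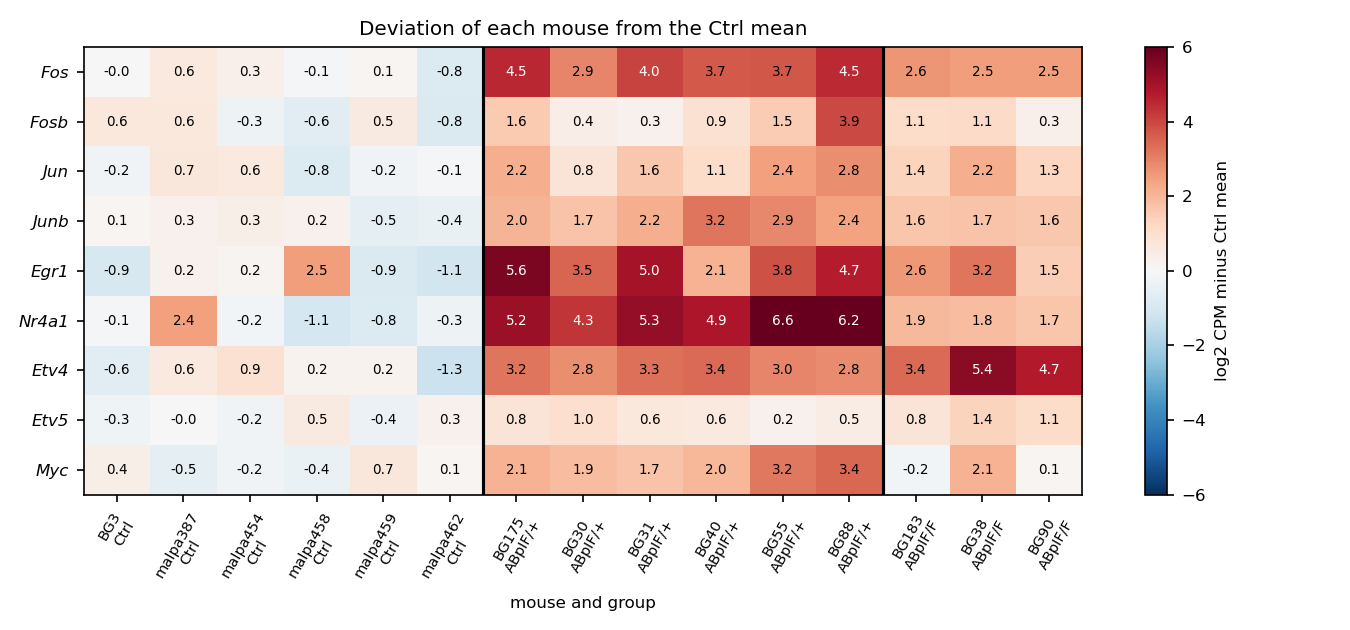
Log2 CPM of 9 members in each mouse minus the Ctrl mean, as color and number, with mice of a group side by side. The rows of *Fos* and *Junb* are nearly even across the 3 ABpIF/F mice, and *Etv4* and *Myc* are highest there in BG38 (7.20 and 14.7 CPM).

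The genes whose pattern was most like that of a member were sought among 12315 genes averaging 1 CPM or more, after the group means were subtracted, over all 15 mice. For *Nr4a1* these were *Rabep2*, *Jund* and *Oaz1-ps* (Pearson r of 0.92, 0.92 and 0.90), and *Jund* is itself an AP-1 gene. For *Myc* they were *Ctbp2*, *Mapk8ip1* and *Rbm38* (0.93, 0.92 and 0.87), and for *Jun* *Naa16*, *Slbp* and *Dnajb4* (0.87, 0.84 and 0.83). *Junb* was followed by *Flii*, *Selenbp1* and *Camsap3* (0.89, 0.88 and 0.87), and *Etv5* by *Osbpl7*, *Tmem67* and *Arl14ep* (0.87, 0.87 and 0.81). Values were lower for *Etv4* with *Lat2*, *Khdc4* and *Kdm5b* (0.84, 0.84 and 0.81), *Egr1* with *Vamp2*, *Fancg* and *Dgka* (0.82, 0.80 and 0.78) and *Fos* with *Crk*, *Jmjd6* and *Pagr1a* (0.80, 0.78 and 0.76). These are the highest values of a long search and mice share libraries across genes, so they are a description. No other member was among them. When the group means were left in, the 3 leading genes shared 2 of 3 for *Etv5*, 1 of 3 for *Myc* and 0 for the others, and the highest for *Etv4* was *Dusp5* (0.97), the gene of an ERK phosphatase.

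Other genes were followed in 11 lists of 148 genes, 125 of them of the pathway and 23 heat shock and clock genes. Of the 125 pathway genes 25 were upregulated and 7 downregulated in ABpIF/+ vs Ctrl, beside 4.69% and 5.35% of all genes. There were 18 upregulated and 2 downregulated in ABpIF/F vs Ctrl, beside 4.55% and 2.38% of all genes. In ABpIF/+ vs ABpIF/F 9 were higher and 13 lower, beside 1.76% and 5.49% of all genes. Among 28 other immediate early genes, 8 were upregulated in ABpIF/+ vs Ctrl (median log2 fold change 0.84), 6 in ABpIF/F vs Ctrl (0.83) and 5 in ABpIF/+ vs ABpIF/F (-0.09), and none was downregulated. *Btg2*, an antiproliferative early gene, averaged 6.56 ± 1.08 CPM in Ctrl mice (SD, n = 6), 181 ± 78.3 (SD, n = 6) in ABpIF/+ and 48.4 ± 22.6 (SD, n = 3) in ABpIF/F mice. Its log2 fold change was 4.79 and 2.88 against Ctrl and 1.91 between the groups with BRAF V600E (edgeR adjusted p = 0.000892). *Ier2* (1.98) and *Ier3* (2.83) rose in ABpIF/+ vs Ctrl, and *Ier3* (2.14) and *Ccn2* (2.58) in ABpIF/F vs Ctrl. *Plk3* (2.75) and *Bhlhe40* (1.54) were higher in ABpIF/+ than in ABpIF/F mice, as was *Maff* of the AP-1 partners (1.79).

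Of the 12 AP-1 partners, *Atf3* (1.84) and *Maff* (2.44) rose in ABpIF/+ vs Ctrl, and *Atf3* (1.68), named after its value was seen, in ABpIF/F vs Ctrl. Among 12 reputed AP-1 target genes 3 rose and 2 fell in ABpIF/+ vs Ctrl, and 3 rose and 1 fell in ABpIF/F vs Ctrl. Over all genes 4.69% were called higher and 5.35% lower in the first comparison, and 4.55% and 2.38% in the second. *Hbegf*, an EGF receptor ligand, rose by 2.02 and 2.14 and *Mmp14*, a membrane metalloproteinase, by 1.29 and 1.63 in the 2 comparisons with Ctrl. *Ccnd1*, the gene of cyclin D1, averaged 140 ± 19.0 CPM in Ctrl (SD, n = 6), against 7.52 ± 3.08 (SD, n = 6) in ABpIF/+ and 37.9 ± 8.66 (SD, n = 3) in ABpIF/F mice, and fell in both (edgeR adjusted p = 1.91e-08 and 0.000768). In ABpIF/+ vs ABpIF/F 6 of the 12 targets were lower and none higher, *Spp1* (-3.30), *Plau* (-2.58) and *Ccnd1* (-2.33) among them. Of all genes 5.49% were called lower and 1.76% higher there. *Spp1* is also in the cholangiocyte marker list and makes up most of its sum, so the higher sum in ABpIF/F mice is not separate from *Spp1*.

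Upstream of the members 4 of 13 regulators were called in ABpIF/+ vs Ctrl, 2 higher and 2 lower, beside 4.69% and 5.35% of all genes. Of these 13 genes that encode their activators and repressors, *Erf* (1.28), an ETS repressor, and *Nab2* (1.07), a corepressor of EGR1, rose in ABpIF/+ vs Ctrl. *Elk3* (-1.29) and *Atxn1* (-1.68), a partner of Capicua, fell, and both were also lower in ABpIF/+ than in ABpIF/F mice (-1.73 and -1.24). None of these 13 was called in ABpIF/F vs Ctrl by edgeR, where *Nab2* was at 0.90 (adjusted p = 0.000403). Among 18 other ETS factors *Elf3* (1.33) rose and *Ehf* (-2.08) fell in ABpIF/+ vs Ctrl, both named after their values were seen, and *Elf3* (2.76) rose in ABpIF/F vs Ctrl. *Ehf* (-2.85), *Elf4* (-2.11) and *Spi1* (-1.58), a factor of myeloid cells, were lower in ABpIF/+ than in ABpIF/F mice. In the MYC network of 12 genes *Mycl* rose by 1.85 in ABpIF/+ and by 1.02 in ABpIF/F vs Ctrl, and *Mlxipl* (-1.04), which encodes the carbohydrate sensor ChREBP, fell in ABpIF/+ vs Ctrl. Of 19 reputed MYC target genes *Npm1* (1.29) rose and *Ccnd2* (-1.80) fell in ABpIF/+ vs Ctrl, and *Srm* (-1.06) fell in ABpIF/F vs Ctrl. *Srm* (1.46), *Npm1* (1.04) and *Nolc1* (1.02) were higher and *Ccnd2* (-2.36) was lower in ABpIF/+ than in ABpIF/F mice. In ABpIF/+ vs Ctrl the lists of 18 ETS factors, 12 MYC network and 19 MYC target genes each had 1 gene higher and 1 lower. Over all genes 4.69% were higher and 5.35% lower, so these counts do not set the 3 lists apart. Their median log2 fold changes were -0.58, 0.20 and 0.22. In ABpIF/F vs Ctrl each had 1 gene called, beside 4.55% higher and 2.38% lower of all genes.

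The feedback and output genes of ERK gave the largest share of calls among these 11 lists in both comparisons with Ctrl. Of 11 genes 7 rose in ABpIF/+ vs Ctrl (median 1.78) and 6 in ABpIF/F vs Ctrl (median 1.07), and none was called between ABpIF/+ and ABpIF/F (median 0.10). Over all genes 4.69% and 4.55% were called higher in the 2 comparisons with Ctrl. *Dusp4*, the gene of a nuclear ERK phosphatase, rose by 3.20 in ABpIF/+ and by 3.37 in ABpIF/F vs Ctrl, and *Spry2* by 2.86 and 2.75. *Epha4* rose by 2.82 and 2.67 and *Dusp5* by 2.61 and 3.75 in the same order. Heat shock genes, which respond to stress and handling of tissue, were tallied beside the early genes. Of 11 such genes 5 were called lower in ABpIF/+ vs Ctrl and 4 in ABpIF/F vs Ctrl (median -0.93), beside 5.35% and 2.38% of all genes. None was called higher. *Hspb1* was at -2.95 and -1.52 and *Hsph1* at -1.86 and -1.71. *Hspa8*, named after its value was seen, averaged 995 CPM in ABpIF/+ and 583 in Ctrl mice without overlap, short of 2-fold (0.77, edgeR adjusted p = 0.00143). The summed level of the list had a median of 1627 CPM in Ctrl, 1556 in ABpIF/+ and 1163 in ABpIF/F mice. *Hspb1* (-1.43) was also lower in ABpIF/+ than in ABpIF/F mice. Of the 9 clock genes of the evening side 4 fell in ABpIF/F vs Ctrl, beside 2.38% of all genes. In ABpIF/+ vs ABpIF/F 4 were higher, beside 1.76% of all genes, *Ciart* (5.13), *Per1* (2.83) and *Tef* (2.44) among them. *Per1* (1.61) rose in ABpIF/+ vs Ctrl. On the morning side *Npas2* (-5.57) was lower in ABpIF/+ than in ABpIF/F mice.

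**Figure D5:**
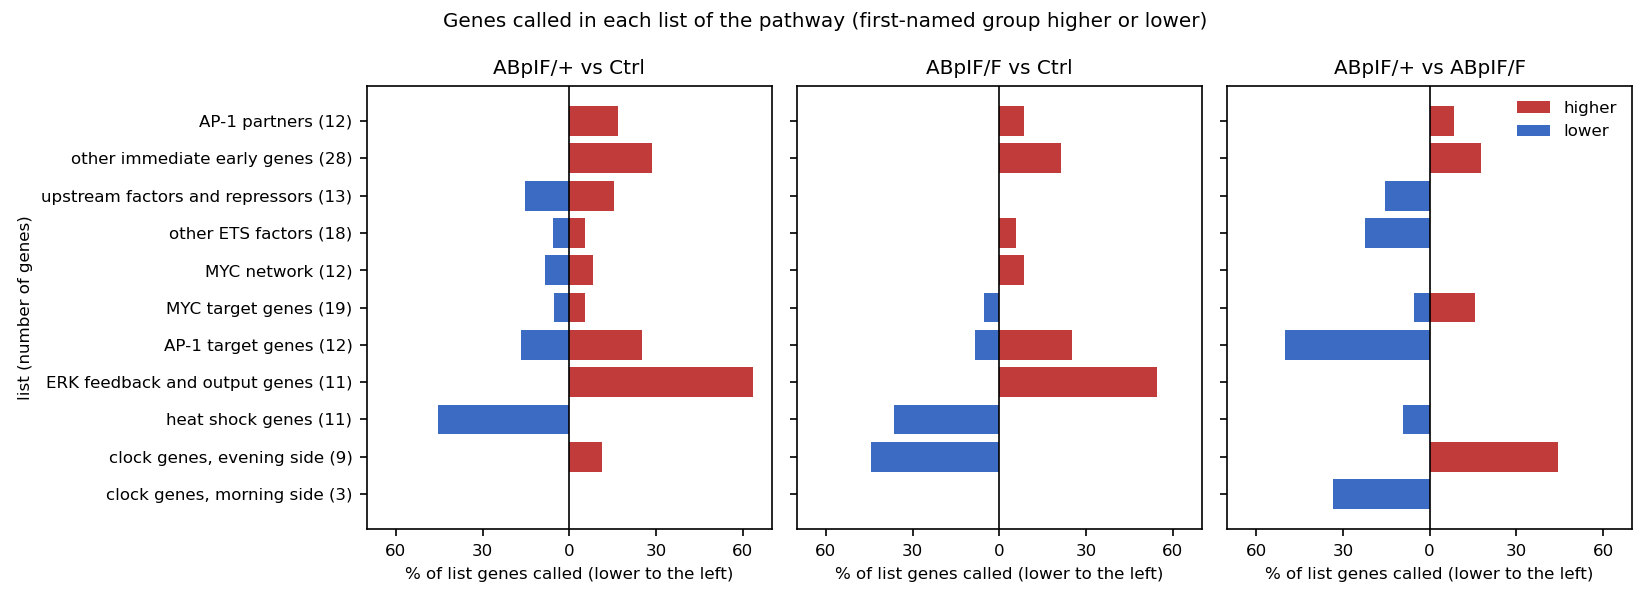
Percent of the genes of each of 11 lists that were called higher (right, red) or lower (left, blue) in the first-named group of the 3 comparisons, with the number of genes of a list in brackets. ERK feedback genes have the longest bars to the right against Ctrl (7 and 6 of 11 genes), and AP-1 target genes the longest to the left in ABpIF/+ vs ABpIF/F (6 of 12).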

How the data were processed

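Total RNA from liver was extracted with Trizol, and stranded, poly(A) based libraries were read from both ends. After trimming, the authors used HISAT2 (version written 2.21 in the submitters' processing notes) for alignment to mm10 and featureCounts 2.0.8 for gene counts. What they deposited is unnormalized: raw counts for 27179 genes, in a column for each of 15 mice. The 2 deposited tables did not differ in the 10 columns compared, and 5 columns of per-sample values headed only by numbers were not used, nor were the authors' columns of fold changes and p-values. The 15 mice are named by 23 samples, 8 mice by 2 each, and their libraries were not told apart. Annotation and strand setting of the counting are not given in the sources used here.

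The test was that of edgeR 4.0.16 under R 4.3.3 (TMM, all genes kept, robust dispersions, quasi-likelihood F-test in the form of edgeR 3, 3 groups in 1 fit) and p-values were adjusted by Benjamini-Hochberg over all genes. A call needed an adjusted p below 0.01 together with a 2-fold change or more in either direction. SE is the absolute log2 fold change over the root of F, and log2 CPM used a prior count of 2. p-values of edgeR set a group difference against the spread between the mice sequenced, estimated over the 3 groups together and with information shared across genes. DESeq2 1.42.0, other scalings, filters, thresholds and subsets of mice were tried as alternatives. Exon lengths and positions came from GENCODE M21 on GRCm38, and promoters from RefSeq on GRCm38.p6. Named were all members, per list, comparison and direction up to 3 called genes of largest change with at least 1 CPM in a group compared and no overlap, and per member the 3 genes most correlated with it. Members and lists were chosen with earlier results of these data known.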

Additional observations from a re-analysis of the deposited data

Results flagged for a closer look

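In a group of 6 mice, a value was set apart when its gap to the nearest mouse exceeded the critical share of the group's range in Dixon's test at 95%. Of 18 sets of a member and a group tested 3 were. Chance sets apart about 1 in 20 groups where values are normally distributed. CPM were used here without a log transform, so 3 of 18 cannot be read against that rate. In ABpIF/+ mice *Fosb* was at 3.94 CPM in BG88, with the next mouse at 0.704. In Ctrl mice *Egr1* was at 56.8 CPM in malpa458, with the next mouse at 11.8. *Nr4a1* was at 10.1 CPM in the Ctrl mouse malpa387, with the next at 1.68, and malpa387 was also the Ctrl mouse whose clock gene score of -2.63 lay among those of ABpIF/F mice. The part of the clock gene difference in this value was not tested.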

How the results depend on the processing

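Of 693 values of single members under alternatives 638 kept their direction and side of the threshold, 38 lost a call, 15 gained 1 and 2 turned in direction. The last were *Nr4a1* in ABpIF/F vs Ctrl with the clock score as a covariate (-0.26) and *Myc* in ABpIF/F vs Ctrl without BG38 (-0.10, against 1.38 at the highest when other single mice were left out). *Fos* and *Etv4* in ABpIF/+ vs Ctrl and *Etv4* in ABpIF/F vs Ctrl stayed called under all 26 alternatives. At a log2 fold change of at least 2 the members called numbered 2 in ABpIF/F vs Ctrl and 1 in ABpIF/+ vs ABpIF/F, and genes of the 11 other lists, heat shock and clock genes included, 14, 12 and 14 in the 3 comparisons (38, 28 and 28 at the threshold of 2-fold). With no limit on fold change and the adjusted p limit at 0.05 the latter were 74, 60 and 64. With the clock score as a covariate, members called were 1 in ABpIF/F vs Ctrl and 1 in ABpIF/+ vs ABpIF/F, and list genes 9 and 0. The score is made of clock genes, but the 125 pathway genes alone also went from 20 to 6 and from 22 to 0 in these comparisons (edgeR, with 41 of the 125 at an unadjusted p under 0.05 in the last). Outside ABpIF/F only malpa387 had a low score, so that score and group are nearly confounded. This fit cannot tell them apart, and calls can be lost through wider errors alone. With BG3 as the only Ctrl mouse 2 members were called in ABpIF/+ vs Ctrl and 1 in ABpIF/F vs Ctrl, and 20 list genes in the first. That lone Ctrl mouse is assumed to vary like the mice of the other groups. Leaving out single mice gave 7 to 8, 3 to 5 and 1 to 3 members and 33 to 38, 20 to 36 and 18 to 33 list genes in the 3 comparisons. Without both malpa387 and malpa458, an alternative chosen after seeing the data, 6, 4 and 3 members were called, *Myc* being lost in ABpIF/+ vs Ctrl (2.30, adjusted p = 0.012). DESeq2 and the filter on low counts also called *Fosb* in ABpIF/+ vs Ctrl and *Jun* in ABpIF/F vs Ctrl. The other deposited table gave no further value, since its counts were the same. Not divided by length, the share of *Fos* in its family was 10.2, 48.1 and 30.7% in Ctrl, ABpIF/+ and ABpIF/F and that of *Fosl2* 86.9, 48.1 and 66.3%. No paired analysis was possible because the numbers in the titles mark samples of the same mouse and pair no mice between groups. Depth limits *Fosl1*, *Fosb* and, in Ctrl, *Etv4*.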
